A study of Homo sapiens with 15 samples.

Results

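The enzymes that build glucose from smaller molecules, and those that bring fructose and sorbitol into the same route, were followed as 6 genes in 15 RNA-seq libraries of human kidney epithelial and fibroblast cultures. They were taken by name from a list of 9. PCK2 (ENSG00000100889.12), PC (ENSG00000173599.15), G6PC3 (ENSG00000141349.10), GOT1 (ENSG00000120053.12), KHK (ENSG00000138030.14) and SORD (ENSG00000140263.15) each had 1 row among the 15790 genes of the deposited table, and PCK1, FBP1 and G6PC1 are not analysed here. The epithelium was RPTEC/TERT1, an immortalized line of renal proximal tubular cells, and the fibroblasts were fHDF/TERT166, an immortalized dermal line. There were 5 groups of 3 libraries: fibroblasts alone, epithelium with fibroblasts on LN/FN-silk membranes (co-cultures on silk), both cell types on LN/PC membranes (co-cultures on LN/PC), epithelium alone on silk (monocultures on silk) and epithelium alone on LN/PC (monocultures on LN/PC). The name LN/PC belongs to the membrane and has no link to the gene PC.

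Every culture was collected 14 days after seeding. The 4 epithelial groups were seeded with 140000 epithelial cells per cm2, and the groups with fibroblasts with 14000 fibroblasts per cm2. The epithelial and co-culture medium held 5 mM glucose, 5 µg/ml insulin, 36 ng/ml hydrocortisone, 10 ng/ml EGF and 0.5% serum, shared by all 4 epithelial groups. Glucose, insulin and glucocorticoids also act on the expression of gluconeogenic genes. No epithelial group went without these additions, and the medium of the fibroblasts alone is not stated. Silk membranes were scraped and LN/PC membranes were cut from a holder, so the membrane and the way of harvest cannot be told apart. Fibroblasts alone came from the bottom of wells, and the protocol calls them basolateral where the titles call them monocultures. Each sample pooled several membranes and each cell type was 1 line. Whether the 3 libraries of a group came from separate cultures is not stated, so p-values reflect only their spread, which may be technical.

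In gluconeogenesis, pyruvate carboxylase (PC) turns pyruvate into oxaloacetate inside mitochondria, and a phosphoenolpyruvate carboxykinase turns oxaloacetate into phosphoenolpyruvate, either in the cytosol (PCK1) or in mitochondria (PCK2). GOT1, the cytosolic aspartate aminotransferase, interconverts aspartate and oxaloacetate in the cytosol as an enzyme of the malate-aspartate shuttle. Fructose-1,6-bisphosphatase (FBP1) and glucose-6-phosphatase (G6PC1) complete the route, and G6PC3 is a broadly expressed relative of G6PC1. The kidney's proximal tubule is, with the liver, the main site of the pathway. Ketohexokinase (KHK) phosphorylates fructose, and sorbitol dehydrogenase (SORD) makes fructose from sorbitol. PCK2 is also known as a target of ATF4, a transcription factor induced by amino acid shortage and other stress.

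Because PCK2, GOT1 and PC carry the differences described here, the 250 bases before 1 RefSeq start of each (GRCh38.p14) are shown, 5′ to 3′ on the gene's strand. Capitals mark matches, on either strand, to TGATGNAA, part of the composite element bound by ATF4 with its partners. The windows are chr10:99430625-99430874 (minus strand) for GOT1, chr14:24094061-24094310 (plus strand) for PCK2 and chr11:66958384-66958633 (minus strand), the first of 3 listed starts, for PC.
GOT1: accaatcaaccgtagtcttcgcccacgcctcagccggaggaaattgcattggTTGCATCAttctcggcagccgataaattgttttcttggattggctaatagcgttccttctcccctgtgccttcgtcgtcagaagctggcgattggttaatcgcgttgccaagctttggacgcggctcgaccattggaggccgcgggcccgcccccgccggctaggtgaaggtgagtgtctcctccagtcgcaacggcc
PCK2: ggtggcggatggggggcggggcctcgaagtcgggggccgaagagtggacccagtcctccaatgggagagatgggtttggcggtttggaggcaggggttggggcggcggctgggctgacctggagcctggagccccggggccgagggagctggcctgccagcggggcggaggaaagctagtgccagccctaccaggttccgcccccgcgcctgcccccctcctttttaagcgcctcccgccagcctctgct
PC: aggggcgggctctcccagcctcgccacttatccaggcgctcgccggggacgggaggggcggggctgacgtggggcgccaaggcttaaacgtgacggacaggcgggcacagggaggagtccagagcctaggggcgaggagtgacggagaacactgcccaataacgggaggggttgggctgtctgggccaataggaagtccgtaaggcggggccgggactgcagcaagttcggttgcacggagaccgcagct
The GOT1 window held 1 match, the reverse complement TTGCATCA, beginning 198 bases before the start. The PCK2 and PC windows held no match, which says only that these letters are not in these windows. None of the 3 held TGACGTCA, the cyclic AMP response element. Of 35116 windows of the same length in the RefSeq table, 3.14% held TGATGNAA and 1.65% held TGACGTCA. The table had entries for 4 of the 6 genes, and KHK and SORD had none.

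Values are normalized counts, which compare 1 gene between libraries but not different genes. Library totals ran from 9.08 to 12.7 in units of 1e6 normalized counts, and 1 read was worth about 0.750 to 1.27. The cells carried the markers of their labels only in part. The 9 renal epithelial markers summed to 34.1 to 38.4 in fibroblasts alone and to at least 62038 in every epithelial library. Of 13 proximal tubule markers, 8 were measured, and none of the 8 was at 0 in an epithelial group. Their sum was 17574 to 20502 in fibroblasts alone, where ANPEP averaged 11042 and AQP1 6709, and 9192 to 14998 over the epithelial libraries. SLC17A1 and SLC17A3 were at 0 in fibroblasts alone. At a limma adjusted p under 0.05, 5 of the 8 were lower and 3 higher in fibroblasts alone than in the epithelial monocultures. The median log2 difference of the 8 was -2.70, and 58.3% of all tested genes passed there (28.0% higher and 30.3% lower). AQP3 and SLC12A1, the 2 distal nephron markers measured of 7, summed to 6065 to 6833 in co-cultures on silk, 7328 to 10318 in co-cultures on LN/PC, 3308 to 6186 in monocultures on silk and 10558 to 10774 in monocultures on LN/PC. The 11 fibroblast markers summed to 524316 to 596419 in fibroblasts alone. They summed to 1318 to 1582 in co-cultures on silk, 97622 to 175851 in co-cultures on LN/PC, 1359 to 1725 in monocultures on silk and 1008 to 1310 in monocultures on LN/PC. From 112 marker genes, fibroblast RNA was put at 13.0 ± 2.80% of LN/PC co-culture libraries and 0.0457 ± 0.0597% of silk co-culture libraries (SD, n = 3 each). In bulk RNA, fewer cells of a type and less RNA per cell cannot be told apart.

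**Figure D1:**
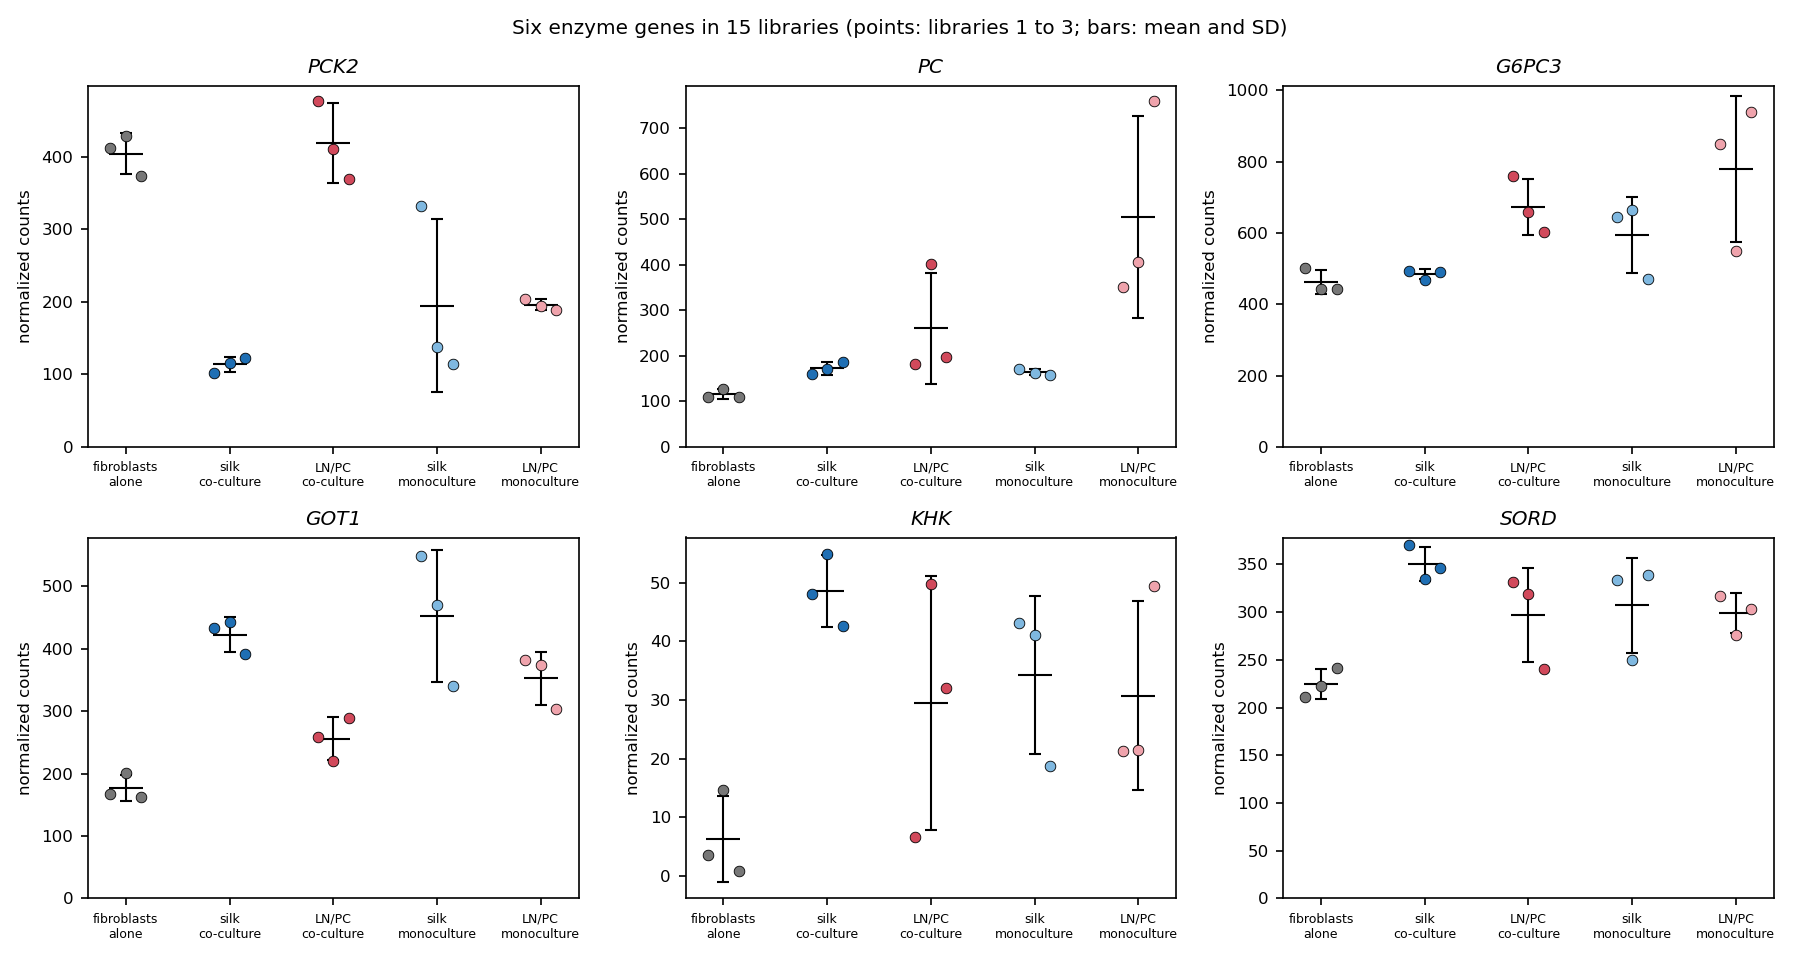
Normalized counts of the 6 enzyme genes in each of 15 libraries (vertical axis, linear), with the group on the horizontal axis, points for libraries and bars for mean and SD of 3. PCK2 lies between 369 and 477 in co-cultures on LN/PC, above all libraries of the other epithelial groups, while PC is highest in monocultures on LN/PC, up to 761.

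PCK2, the mitochondrial phosphoenolpyruvate carboxykinase, varied most among the epithelial groups: the highest of the 4 group means was 3.69 times the lowest. It had 411, 428 and 373 normalized counts in fibroblasts alone. Co-cultures on silk held 102, 116 and 123, and co-cultures on LN/PC held 477, 411 and 369. Monocultures on silk held 332, 138 and 114, and monocultures on LN/PC held 204, 195 and 189. The co-cultures on LN/PC and the fibroblasts alone overlapped at the top, and the 3 co-cultures on silk lay below all LN/PC libraries. Silk monoculture 1, at 332, stood far above the other two of its group, whose values lay among or just above those of the co-cultures on silk.

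PC, the pyruvate carboxylase, followed another order. It had 110, 128 and 109 normalized counts in fibroblasts alone. It had 159, 172 and 187 in co-cultures on silk, against 183, 401 and 198 in co-cultures on LN/PC. It had 171, 162 and 158 in monocultures on silk, against 350, 405 and 761 in monocultures on LN/PC. All 3 fibroblast libraries lay below all epithelial ones, the 6 silk libraries kept within a narrow band, and the LN/PC libraries spread widely. The coefficient of variation was 46.8% in co-cultures on LN/PC and 44.0% in monocultures on LN/PC, against 7.91% in co-cultures on silk and 4.10% in monocultures on silk.

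GOT1, the cytosolic aminotransferase, was lowest in fibroblasts alone, at 167, 200 and 162 normalized counts. Co-cultures on silk had 433, 443 and 391, and co-cultures on LN/PC had 259, 220 and 289. Monocultures on silk had 548, 470 and 340, and monocultures on LN/PC had 381, 373 and 303. Of neighbouring groups in the order of means, only the monocultures on silk and co-cultures on silk had overlapping libraries. The monocultures on silk also overlapped those on LN/PC, through silk monoculture 3 at 340. The co-cultures on silk, monocultures on LN/PC, co-cultures on LN/PC and fibroblasts then followed without overlap between neighbours. The range over the 12 epithelial libraries was 2.50-fold.

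G6PC3, the broadly expressed glucose-6-phosphatase, had 502, 443 and 443 normalized counts in fibroblasts alone. Its values were 494, 469 and 492 in co-cultures on silk, 759, 658 and 603 in co-cultures on LN/PC, 645, 664 and 472 in monocultures on silk and 850, 548 and 940 in monocultures on LN/PC. Each neighbouring pair of groups in the order of means overlapped, and the epithelial range was 2.00-fold. The co-cultures on LN/PC lay above the co-cultures on silk without overlap.

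With all libraries in the fit, neither fructose enzyme was called between epithelial groups. KHK rested on few reads, with 3.49, 14.6 and 0.754 normalized counts in fibroblasts alone. Its highest mean was in co-cultures on silk (48.1, 54.9 and 42.6), and co-cultures on LN/PC had 6.64, 49.7 and 32.0. Monocultures on silk had 43.1, 41.0 and 18.8 and monocultures on LN/PC 21.2, 21.5 and 49.3. With so few reads, 1 library could carry a group mean, and all neighbouring groups overlapped.

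SORD, which feeds fructose from the polyol pathway, was the most even of the 6. It had 211, 222 and 242 normalized counts in fibroblasts alone, 370, 335 and 346 in co-cultures on silk and 332, 320 and 241 in co-cultures on LN/PC. It had 334, 250 and 339 in monocultures on silk and 317, 276 and 304 in monocultures on LN/PC. The highest epithelial group mean was 1.18 times the lowest. SORD has a near-identical pseudogene, SORD2P, that is not in the table, so its values are uncertain. In the GENCODE annotation PC shares exonic sequence on the opposite strand with LRFN4, and KHK with CGREF1. Noncoding genes on the opposite strand overlap SORD and GOT1. The library kit kept strand, but the use of strand in quantification is not stated.

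The membrane comparison with fibroblasts present, co-cultures on silk against those on LN/PC, set PCK2 and GOT1 in opposite directions. PCK2 averaged 113 ± 10.7 normalized counts in co-cultures on silk and 419 ± 54.6 in co-cultures on LN/PC (SD, n = 3 each), a log2 difference of -1.87 ± 0.29 (SE; limma adjusted p = 0.00016). GOT1 averaged 422 ± 27.8 in co-cultures on silk and 256 ± 34.9 in co-cultures on LN/PC, a log2 difference of 0.73 ± 0.19 (limma adjusted p = 0.00756). These 2 of 6 members were called at an adjusted p under 0.05, where 36.1% of the 14433 tested genes were called (18.5% higher and 17.6% lower). The other members had log2 differences of -0.50 ± 0.29 for PC, -0.47 ± 0.19 for G6PC3, 1.07 ± 0.57 for KHK and 0.25 ± 0.18 for SORD, with limma adjusted p of 0.191, 0.0708, 0.150 and 0.287. Leaving out LN/PC co-culture 2 brought KHK to 1.63 (limma adjusted p = 0.0445). Both calls held whichever library was left out.

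The fibroblast marker sum differed between these same groups by -136893 normalized counts, silk minus LN/PC (two-sided exact permutation p = 0.1, the smallest that 3 against 3 allows). AQP3 was lower on silk too, by a log2 difference of -2.10, and its part in the members' differences was not tested. For the fibroblast share, co-cultures on silk were also compared as computed mixtures, in which fibroblast libraries were added to the silk co-culture libraries at the LN/PC share. Such mixtures take fibroblasts in co-culture to express each gene as fibroblasts alone did, which was not tested. At a share of 13.0% PCK2 remained lower, 151 ± 8.07 in the silk mixtures against 419 in co-cultures on LN/PC, with a log2 difference of -1.46 ± 0.29 (limma adjusted p = 0.00231). At the 20.9% share that summed markers gave, the difference was -1.25 (limma adjusted p = 0.00624). GOT1 remained higher at both shares, with log2 differences of 0.61 and 0.54 (limma adjusted p = 0.0250 and 0.0454). When libraries were instead scaled on 381 genes restricted to epithelium, the median of all genes shifted to -0.40. GOT1 then stood at 0.30 (limma adjusted p = 0.216), or 0.70 relative to that median, and PCK2 at -2.30, or -1.90 relative to it.

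**Figure D2:**
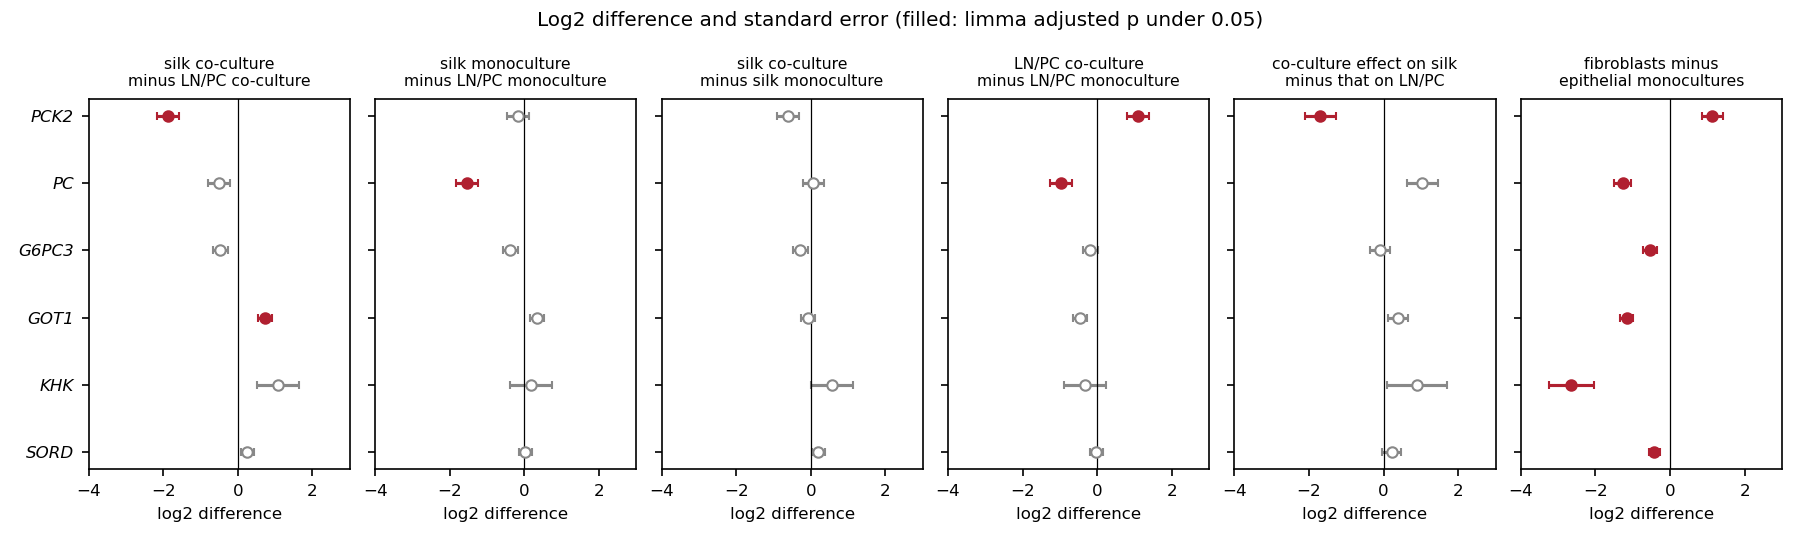
Log2 difference with standard error (horizontal axis) of the 6 genes in 6 comparisons, 1 panel each; filled points passed a limma adjusted p of 0.05. PCK2 is called in 4 panels and PC in 3, GOT1 stands at 0.73 in the first panel, and the third panel has no filled point.

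Without fibroblasts, limma called PC alone of the 6 between the membranes. It averaged 164 ± 6.72 normalized counts in monocultures on silk and 506 ± 223 in monocultures on LN/PC (SD, n = 3 each). The log2 difference was -1.53 ± 0.29 (limma adjusted p = 0.00388), and it stayed between -1.75 and -1.20 when each library was left out, passing the test each time. Both measured distal nephron markers were lower in the same comparison, AQP3 by a log2 difference of -2.65 and SLC12A1 by -1.13, and their part in the PC difference was not tested. PC made 1 of 6 members called, against 11.7% of all tested genes (5.88% higher and 5.79% lower). PCK2 had -0.17 ± 0.29 (limma adjusted p = 0.741). It was -0.64 without silk monoculture 1, the outlying library of its group, and turned to 0.13 without silk monoculture 3. None of the fits that left out 1 library called PCK2 here (lowest limma adjusted p = 0.0801). GOT1 had 0.34 ± 0.19 and G6PC3 -0.37 ± 0.19 (limma adjusted p = 0.247 and 0.220); without LN/PC monoculture 2, G6PC3 had -0.61 (limma adjusted p = 0.0202). KHK and SORD had 0.18 ± 0.57 and 0.029 ± 0.18.

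Adding fibroblasts on silk called none of the 6, with limma and at an unadjusted p under 0.05 alike (0 of 6 each), against 3.78% of all tested genes called (2.91% higher and 0.866% lower). PCK2 came nearest, with 113 ± 10.7 normalized counts in co-cultures on silk and 195 ± 120 in monocultures on silk, a log2 difference of -0.61 ± 0.29 (limma adjusted p = 0.301). Without silk monoculture 1 it was -0.15. The others lay between -0.28 for G6PC3 and 0.57 for KHK. GOT1, at -0.074 ± 0.19, turned to 0.078 without silk monoculture 1.

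Adding fibroblasts on LN/PC moved the 2 mitochondrial enzymes in opposite directions. PCK2 averaged 419 ± 54.6 normalized counts in co-cultures on LN/PC and 196 ± 7.72 in monocultures on LN/PC, a log2 difference of 1.09 ± 0.29 (limma adjusted p = 0.0216). PC averaged 261 ± 122 in co-cultures on LN/PC and 506 ± 223 in monocultures on LN/PC, a log2 difference of -0.96 ± 0.29 (limma adjusted p = 0.0395). That made 2 of 6 members called, against 12.5% of all tested genes (7.80% higher and 4.72% lower). GOT1 had -0.46 ± 0.19 (unadjusted p = 0.0261, limma adjusted p = 0.128), with 256 ± 34.9 in co-cultures on LN/PC and 353 ± 42.8 in monocultures on LN/PC. G6PC3, KHK and SORD had -0.18 ± 0.19, -0.33 ± 0.57 and -0.019 ± 0.18.

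Both calls ended without some single libraries. PCK2 lost its call without LN/PC co-culture 1 (limma adjusted p = 0.0961), LN/PC co-culture 2 (0.0513) or LN/PC monoculture 1 (0.0582), while its log2 difference stayed between 0.99 and 1.17. PC lost its call without LN/PC co-culture 1 (limma adjusted p = 0.181), LN/PC co-culture 3 (0.127) or LN/PC monoculture 3 (0.145), the last of which gave a log2 difference of -0.63. KHK turned positive without LN/PC co-culture 1 (0.48) or LN/PC monoculture 3 (0.063).

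Fibroblasts by themselves held about as much PCK2 as the co-cultures on LN/PC, so the co-cultures were also set against computed mixtures of LN/PC monoculture and fibroblast libraries. PCK2 was 419 ± 54.6 normalized counts in co-cultures on LN/PC and 223 ± 9.34 in mixtures at a share of 13.0%, a log2 difference of 0.90 ± 0.29 (limma adjusted p = 0.0814). At 20.9% the mixtures reached 239 ± 10.7, and the difference was 0.80 ± 0.28 (limma adjusted p = 0.112). The lowest LN/PC co-culture library, at 369, lay above the highest mixture, at 247. The mixtures take fibroblasts in co-culture to hold the PCK2 level of fibroblasts alone, whose medium is not stated. They also use 1 mean share, while the libraries ran from 9.81 to 15.2%, or 14.5 to 25.8% by summed markers. Neither assumption was tested, so the cell type that held the added PCK2 cannot be told. PC was 261 in co-cultures on LN/PC, against 455 and 424 in the mixtures, with log2 differences of -0.82 and -0.72 (limma adjusted p = 0.106 and 0.143). With mixtures in the place of the monocultures on LN/PC, 0 of 6 members were called. Few of all genes were called there too, 626 of 14517 at a share of 13.0% and 689 of 14553 at 20.9%.

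**Figure D3:**
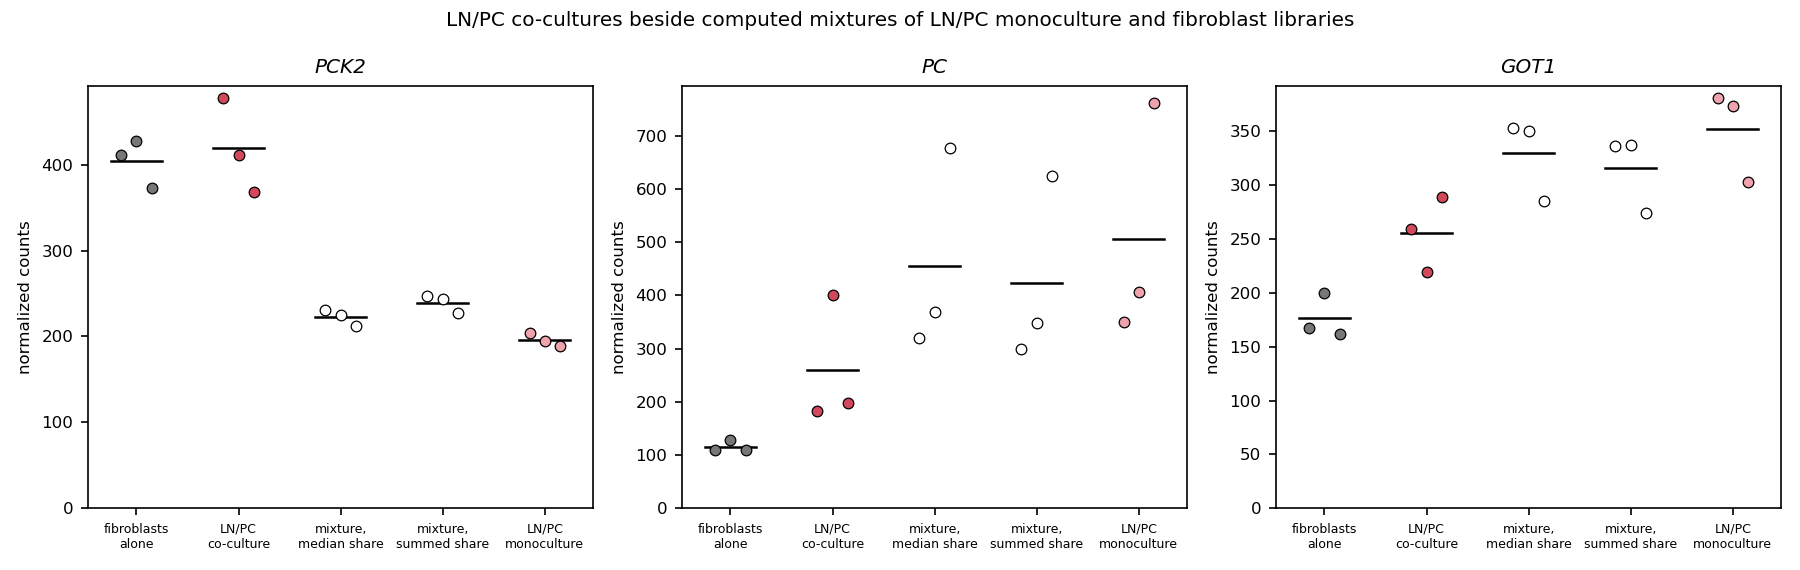
Normalized counts of PCK2, PC and GOT1 (vertical axis) in fibroblasts alone, co-cultures on LN/PC, mixtures computed at a fibroblast share of 13.0% or 20.9%, and monocultures on LN/PC; points are libraries and lines are means of 3. All PCK2 points of co-cultures on LN/PC, from 369 to 477, lie above all mixture points, the highest of which is 247.

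Whether co-cultures differed from monocultures unlike on the 2 membranes was tested as an interaction, the co-culture difference on silk minus that on LN/PC. Fibroblast RNA was put at 13.0% of LN/PC co-culture libraries and 0.0457% of silk ones, and its part in the interaction was not tested. PCK2 was the 1 member called, at -1.70 ± 0.41 (limma adjusted p = 0.0171), against 7.73% of all tested genes (3.15% higher and 4.59% lower). Without LN/PC co-culture 1 it was -1.60 (limma adjusted p = 0.0578). PC had 1.03 ± 0.41 (limma adjusted p = 0.152), and without LN/PC co-culture 2 it had 1.39 (limma adjusted p = 0.0311). GOT1, KHK, SORD and G6PC3 had 0.39 ± 0.27, 0.90 ± 0.80, 0.22 ± 0.25 and -0.096 ± 0.28. G6PC3 changed sign, to 0.14, without LN/PC monoculture 2.

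The cell types were set apart by all 6 genes in the comparison of fibroblasts alone with the mean of both epithelial monocultures, where 58.3% of 14502 tested genes were called (28.0% higher and 30.3% lower). PCK2 was higher in fibroblasts, by a log2 difference of 1.13 ± 0.28 (limma adjusted p = 0.00472). The other 5 were lower, with log2 differences of -2.65 ± 0.60 for KHK, -1.27 ± 0.23 for PC, -1.16 ± 0.17 for GOT1, -0.53 ± 0.18 for G6PC3 and -0.42 ± 0.15 for SORD (limma adjusted p from 0.00013 to 0.0280). The calls of PCK2, KHK, PC and GOT1 held whichever library was left out. KHK, though, had only 3.49, 14.6 and 0.754 normalized counts in fibroblasts alone, and it met the filter through its epithelial libraries. The size of its difference is thus uncertain, and it ran from -2.77 to -0.69 under the other settings. Those of G6PC3 and SORD were each lost in 5 of 9 such fits. For G6PC3 the limma adjusted p was 0.0762 and 0.0735 without fibroblast 2 or 3, 0.0509 and 0.0575 without silk monoculture 1 or 2, and 0.0538 without LN/PC monoculture 1. For SORD it was 0.116, 0.0942 and 0.0526 without fibroblast 1, 2 or 3, 0.0532 without silk monoculture 1 and 0.0507 without LN/PC monoculture 1.

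Other genes of the route were counted in the same fits. They come from lists of textbook members, chosen with earlier results of these data known. In co-cultures on silk against those on LN/PC, 8 of 15 other gluconeogenesis genes were called, 4 higher and 4 lower, where 18.5% of all tested genes were higher and 17.6% lower. Their median log2 difference was 0.19, against 0.030 for all tested genes. GLUD1, the mitochondrial glutamate dehydrogenase, had 3138 ± 35.4 normalized counts in co-cultures on silk and 6662 ± 1415 in co-cultures on LN/PC (log2 difference -1.06 ± 0.21). SLC37A4, the glucose-6-phosphate transporter that works with the glucose-6-phosphatases, had 445 ± 14.5 in co-cultures on silk and 881 ± 172 in co-cultures on LN/PC (-0.96 ± 0.19). MPC1, a subunit of the mitochondrial pyruvate carrier, was higher at 274 ± 25.1 in co-cultures on silk, against 141 ± 16.5 in co-cultures on LN/PC (0.96 ± 0.21). Under epithelium-restricted scaling the MPC1 difference was 0.53 and its call ended (limma adjusted p = 0.0645).

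In monocultures on silk against those on LN/PC, 1 of these 15 genes was called higher (GPT2, 0.76 ± 0.23) and 1 lower (SLC37A4, -0.74 ± 0.19), where 11.7% of all genes were called. Both calls ended without silk monoculture 1 (limma adjusted p = 0.182 and 0.0798), LN/PC monoculture 1 (0.111 and 0.0647) or LN/PC monoculture 3 (0.0653 and 0.0974). That of GPT2 also ended without silk monoculture 2 (0.0847). On either membrane, adding fibroblasts called 0 of the 15 by limma, with an unadjusted p under 0.05 for 1 on silk and 3 on LN/PC. In fibroblasts alone 9 of 15 were lower than in the epithelial monocultures and none was higher, with a median of -0.84. Of all genes 30.3% were lower and 28.0% higher there, so the share of the 15 called was near that of all genes (58.3%). These included LDHB at -2.91 and SLC37A4 at -2.87.

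Of 9 genes for glycolytic steps that gluconeogenesis runs in reverse, 3 were higher and none lower in co-cultures on silk than on LN/PC. There 18.5% of all genes were higher. In monocultures on silk against those on LN/PC 4 were higher and none lower (5.88% of all genes higher). Adding fibroblasts on LN/PC gave 4 higher and none lower (7.80% of all genes higher), and on silk 1 higher and none lower (2.91%). In fibroblasts alone 7 were lower and 1 higher than in the epithelial monocultures (30.3% and 28.0% of all genes), with a median log2 difference of -1.83. In the interaction 1 was higher and 1 lower (7.73% of all genes called). ENO2, a neuron-type enolase, was called in every pairwise comparison of epithelial groups. Its means were 4571 ± 428 normalized counts in co-cultures on silk, 934 ± 105 in co-cultures on LN/PC, 1181 ± 56.4 in monocultures on silk and 399 ± 58.7 in monocultures on LN/PC. PGK1, phosphoglycerate kinase, had 26363 ± 3253 in co-cultures on silk and 14705 ± 1975 in co-cultures on LN/PC (log2 difference 0.84 ± 0.24), and 17696 ± 2195 in monocultures on silk and 8122 ± 2551 in monocultures on LN/PC (1.17 ± 0.24). Between the co-cultures its limma adjusted p was 0.0526 without silk co-culture 3 and 0.0961 against the mixtures of 20.9%, and under epithelium-restricted scaling the difference was 0.41 (0.176). ALDOC, an aldolase, averaged 130 ± 36.9 in co-cultures on LN/PC and 1.71 ± 1.20 in monocultures on LN/PC. ALDOC was also higher in fibroblasts than in the epithelial monocultures, by a log2 difference of 3.44.

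Of 5 measured fructose and polyol genes, AKR1B1, the aldose reductase that makes sorbitol, was the 1 called between the co-cultures, where 36.1% of all genes were called. It had 2414 ± 489 normalized counts in co-cultures on silk and 1247 ± 126 in co-cultures on LN/PC (log2 difference 0.94 ± 0.32). Its limma adjusted p of 0.0314 became 0.119, 0.0509 and 0.0584 without silk co-culture 1, 2 or 3, and 0.0777 and 0.0646 without LN/PC co-culture 2 or 3. Against the mixtures it was 0.0800 and 0.130, and under epithelium-restricted scaling 0.245. In the other pairwise comparisons of epithelial groups limma called none of the 5, with an unadjusted p under 0.05 for 0 between monocultures, 1 on silk and 1 on LN/PC. In fibroblasts 4 of the 5 were lower and 1 higher than in the epithelial monocultures (58.3% of all genes called). SLC2A5, the fructose transporter, stood at -3.86 but rested on few reads. Its means were 0.186 normalized counts in fibroblasts alone, 27.1 in monocultures on silk and 14.0 in monocultures on LN/PC.

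Among 15 measured regulators of the pathway, 5 were higher and 3 lower in co-cultures on silk than in those on LN/PC, against 18.5% higher and 17.6% lower among all genes. PPARGC1A, the coactivator PGC-1α that raises PCK1 and G6PC1 transcription in liver, had 693 ± 30.1 normalized counts in co-cultures on silk and 151 ± 39.8 in co-cultures on LN/PC (log2 difference 2.22 ± 0.21). It had 331 ± 65.8 in monocultures on LN/PC and was lower in the co-cultures on LN/PC by -1.14 ± 0.21. NR4A1, an immediate early nuclear receptor, had 22.1 ± 17.3 in co-cultures on silk, 269 ± 26.6 in co-cultures on LN/PC and 9.17 ± 9.50 in monocultures on LN/PC. NR4A1 also stood 3.75 log2 units higher in fibroblasts alone than in the epithelial monocultures. These PPARGC1A and NR4A1 calls held against the mixtures and whichever library was left out.

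In the monocultures 1 of 15 regulators was higher and 4 were lower on silk than on LN/PC, against 5.88% and 5.79% of all genes. ESRRG, an orphan nuclear receptor of oxidative metabolism, had 292 ± 29.5 normalized counts in monocultures on silk and 638 ± 118 in monocultures on LN/PC (log2 difference -1.11 ± 0.19), a call kept in every fit that left out 1 library. NR3C1, the glucocorticoid receptor, was lower at -0.53 ± 0.13, with a limma adjusted p of 0.0644 without silk monoculture 1. CEBPB, a bZIP factor, was lower at -0.90 ± 0.23, with 0.0720 without silk monoculture 3 and 0.0639 without LN/PC monoculture 3. SIRT1, a deacetylase, was lower at -0.59 ± 0.17 (limma adjusted p = 0.0380), and its call ended without any 1 of the 6 libraries, with limma adjusted p from 0.0535 to 0.0942.

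Glucocorticoid and insulin response genes were read because all epithelial cultures received both hormones. Of 6 glucocorticoid response genes, 3 were lower in co-cultures on silk than in those on LN/PC and none was higher, where 17.6% of all genes were lower. TSC22D3, the glucocorticoid-induced leucine zipper, had 762 ± 17.5 normalized counts in co-cultures on silk and 1298 ± 167 in co-cultures on LN/PC (log2 difference -0.76 ± 0.14). It was also lower in monocultures on silk, at 979 ± 68.3, against 1468 ± 98.1 in monocultures on LN/PC (-0.58 ± 0.14), a call that ended in the fit of the compared libraries alone (limma adjusted p = 0.0675). SGK1 of the same list was higher there, at 0.57 ± 0.17 (limma adjusted p = 0.0439), a call lost in 5 of 6 fits that left out 1 library. Between monocultures the list thus had 1 gene higher and 1 lower, against 5.88% and 5.79% of all genes. DUSP1, a phosphatase of MAP kinases, had 411 ± 122 in co-cultures on silk and 965 ± 282 in co-cultures on LN/PC (-1.23 ± 0.41). Its call ended without silk co-culture 2 (limma adjusted p = 0.0755), silk co-culture 3 (0.113) or LN/PC co-culture 3 (0.0904). ZBTB16, another gene of the list, had -1.50 between the co-cultures, but 0.36 and 0.89 once the co-cultures on silk were mixed with fibroblasts. ZBTB16 was 3.67 log2 units higher in fibroblasts than in the epithelial monocultures.

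Of 6 measured insulin and FOXO response genes, 2 were higher in co-cultures on silk than in those on LN/PC and none was lower (18.5% of all genes higher). IRS2, an insulin receptor substrate, had 1090 ± 119 normalized counts in co-cultures on silk and 205 ± 11.8 in co-cultures on LN/PC (log2 difference 2.40 ± 0.19). It had 325 ± 75.2 in monocultures on silk and was higher in the co-cultures on silk by 1.76 ± 0.19. IRS1 had 963 ± 223 in co-cultures on silk and 436 ± 85.0 in co-cultures on LN/PC (1.13 ± 0.23). SREBF1, which encodes the lipogenic factor SREBP-1, had 875 ± 104 in monocultures on silk and 2091 ± 220 in monocultures on LN/PC (-1.26 ± 0.17).

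PCK2 was set beside a list of 12 genes, made up of ATF4 itself and target genes of it. In co-cultures on silk against those on LN/PC 3 of the 12 were lower and 2 higher, with a median of -0.41, where 36.1% of all genes were called. ASNS, the asparagine synthetase, had 188 ± 61.9 normalized counts in co-cultures on silk and 991 ± 145 in co-cultures on LN/PC (log2 difference -2.44 ± 0.35). PHGDH and PSAT1, which make serine, had -2.25 ± 0.31 and -1.23 ± 0.29. DDIT3, the stress factor CHOP, ran the other way, with 557 ± 130 in co-cultures on silk and 208 ± 14.1 in co-cultures on LN/PC (1.39 ± 0.29). Against the mixtures ASNS (-1.89 and -1.64), PHGDH (-1.43 and -1.09) and DDIT3 (1.27 and 1.20) kept their calls, and PSAT1 did not (limma adjusted p = 0.163 and 0.542). Between the monocultures 1 of the 12 was called, against 11.7% of all genes. PHGDH was lower on silk there, at -1.31 ± 0.31 (limma adjusted p = 0.0149), while PCK2 had -0.17 and was not called. The PHGDH call ended without silk monoculture 2 (limma adjusted p = 0.0628) or 3 (0.0676), or LN/PC monoculture 3 (0.0709). In fibroblasts alone 7 of the 12 were higher and 1 lower than in the epithelial monocultures, where 58.3% of all genes were called and 28.0% were higher.

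With fibroblasts added on LN/PC, 3 of the 12 were higher and none lower, against 7.80% and 4.72% of all genes. ASNS, at 1.30 ± 0.35, lost its call against both mixtures (limma adjusted p = 0.0541 and 0.0669) and in 4 of 6 fits: without LN/PC co-culture 1 (0.0894) or 3 (0.0515), or LN/PC monoculture 1 (0.0621) or 2 (0.0678). ATF3, a stress-induced factor, had 104 ± 14.4 normalized counts in co-cultures on LN/PC and 13.2 ± 6.17 in monocultures on LN/PC (log2 difference 2.97 ± 0.43). TRIB3, a pseudokinase, had 469 ± 59.4 in co-cultures on LN/PC and 217 ± 70.4 in monocultures on LN/PC (1.15 ± 0.22). With fibroblasts added on silk, 3 were higher and 1 lower (3.78% of all genes called). TRIB3 reached 931 ± 55.6 in co-cultures on silk, against 316 ± 88.0 in monocultures on silk (1.59 ± 0.22). DDIT3 had 1.61 ± 0.29 there. PCK2 had -0.61 in the same comparison and was not called. ATF4 itself was called in none of the pairwise epithelial comparisons by limma, with log2 differences of -0.24, -0.20, 0.10 and 0.14 and unadjusted p of at least 0.202. These are RNA values, and the part of ATF4 in the PCK2 differences was not tested.

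**Figure D4:**
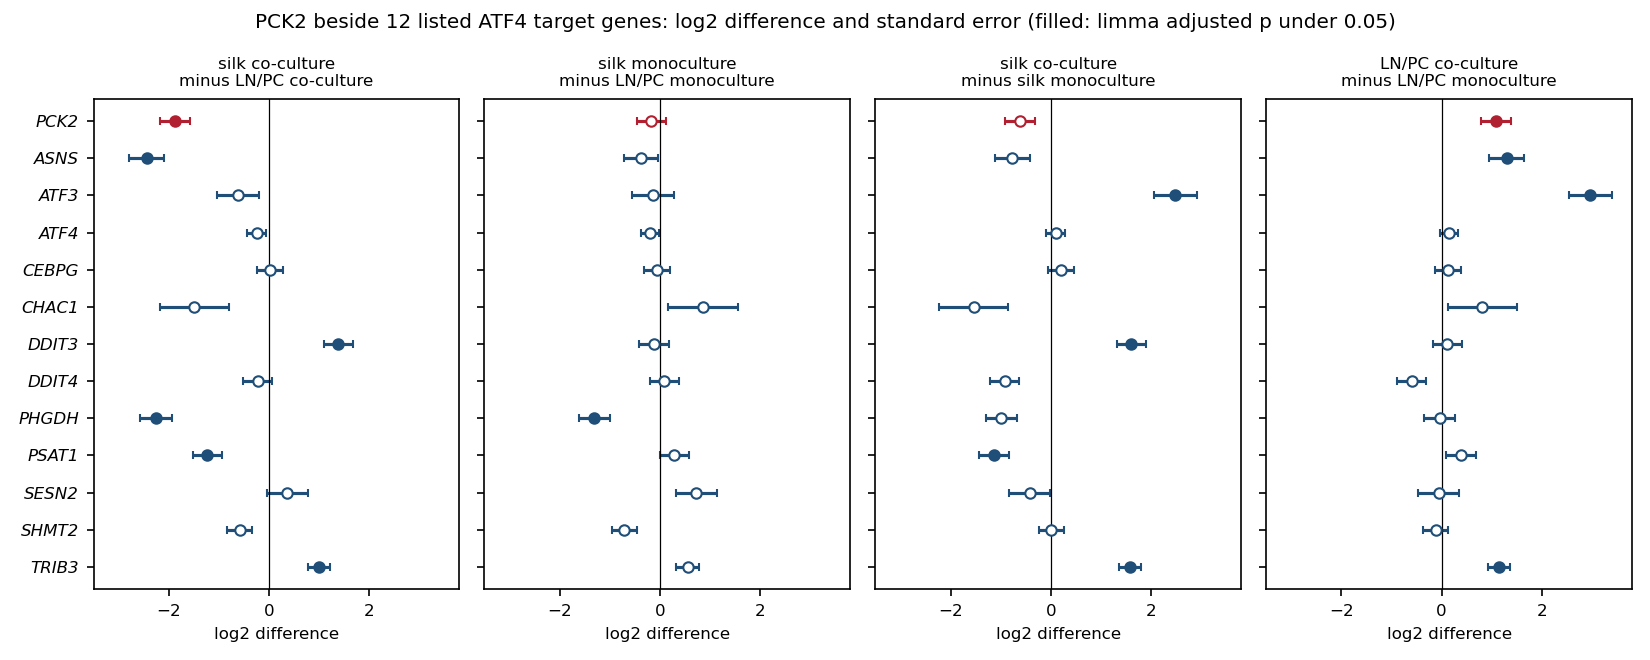
Log2 difference with standard error (horizontal axis) of PCK2 (red) and 12 listed genes, ATF4 itself and its targets (blue), in the 4 pairwise comparisons of epithelial groups. Filled points passed a limma adjusted p of 0.05. In the first panel PCK2, ASNS, PHGDH and PSAT1 lie left of 0 and DDIT3 and TRIB3 lie right of it.

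The genes whose log2 values ran most like each called member over the 12 epithelial libraries were sought among 9988 genes, as a description. For PCK2 they were JDP2 and MAGED1 (Pearson r = 0.92 each) and PCDHGC3 (0.91). For GOT1 they were RNF44, PTPN1 and MED13 (0.96 each). For PC they were HAGLR, GUCY1A1 and FHL2 (0.95 each). The 12 libraries share 4 groups, and the co-cultures on LN/PC share fibroblast RNA, so these values follow group differences as well. Between members, PC and G6PC3 had r = 0.63 and PCK2 and PC had r = 0.23.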

How the data were processed

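RNA of the 15 samples was poly-A selected and sequenced from strand-keeping libraries, per the labels' protocols. The submitters' processing notes name Salmon 1.10.3 for quantification, and DESeq2. No genome build or annotation is named. The deposited values, which the authors call normalized counts, are log2 values that share a floor of 5.53664461 across 15 libraries, as a variance-stabilizing transformation gives. That transformation was inverted with the floor as its constant, a step added once the table was seen, since linear values had been planned for. After inversion the median ratio to the geometric mean over 13121 genes was 1.01175 in each library. A count model was not fitted, because 36.0 to 57.0% of the low values fell within 0.1 of whole reads.

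Log2(value + 1), which understates changes of low genes, was tested with limma-trend (version 3.58.1 in R 4.3.3). Genes needed a value of 10 or more in 3 or more libraries of a fit, which all 6 members met. Tests were two-sided with Benjamini-Hochberg adjustment over all tested genes, and an adjusted p under 0.05 was a call. One fit held the 4 epithelial groups and another the fibroblasts with the epithelial monocultures. The method was tested on simulated data.

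The members and lists were chosen with earlier results of these data known. From each list, up to 4 called genes with the largest absolute difference and a higher group mean of 100 or more could be named per pairwise comparison. Values are given mainly for those whose call held whichever library was left out, a choice made after their values were seen, as was the naming of uncalled genes and of genes from the fibroblast comparison. Mixtures added fibroblast libraries, matched by number for convenience only, to monoculture libraries at the LN/PC co-culture share. The 20.9% share and the mixtures with co-cultures on silk were added after the data were seen. Other alternatives were a pseudocount of 5, no filter, the deposited log2 values, upper-quartile and epithelium-restricted scaling, fits of the compared libraries alone, the replicate number as a block, and leaving out each library.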

Additional observations from a re-analysis of the deposited data

Results flagged for a closer look

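For 10 of the 40 members and list genes looked up here, the difference that fibroblasts made on silk differed from the one they made on LN/PC, by the interaction test of the 12-library limma fit (value on silk minus value on LN/PC, in log2 units). The list genes among the 40 were chosen for calls in the pairwise comparisons, and the same test called 1116 of all 14433 genes (7.73%). PCK2 had -1.70 (adjusted p = 0.0171), with -0.61 on silk and 1.09 on LN/PC. ALDOC had -4.29 and NR4A1 -4.21. Among ATF4 target genes, ASNS had -2.06, PSAT1 -1.52 and DDIT3 1.50. PPARGC1A had 1.85, IRS2 1.72, SREBF1 0.95 and ENO2 0.72. The fibroblast marker sum was 1318 to 1582 in silk co-cultures and 97622 to 175851 in LN/PC co-cultures, and its part in these values was not tested in the interaction.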

How the results depend on the processing

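Counts of called genes below are of all tested genes unless members are named, and the cause of each shift was not tested. Fits of the compared libraries alone called 754 genes for silk against LN/PC monocultures (1685 as reported), 1174 for co-cultures against monocultures on silk (545), and 1088 genes with 1 member for co-cultures against monocultures on LN/PC (1807 and 2), PC losing its call. In that last comparison epithelium-restricted scaling called 4234 genes and 1 member, and the 2 mixtures called 626 and 689 genes and 0 members. Epithelium-restricted scaling moved the median of all genes to -0.40 between the co-cultures, 0.40 on LN/PC and -0.32 in the interaction, and higher genes then made up 15.9%, 96.9% and 11.8% of calls, against 51.3%, 62.3% and 40.7% as reported. For the monocultures it was 36.3% against 50.4%, and for silk 89.2% against 77.1%. Upper-quartile scaling moved the fibroblast median to -0.18 and gave 66.2% on silk and 30.4% in the interaction.

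Signs turned under epithelium-restricted scaling for SORD between co-cultures (-0.18), between monocultures (-0.052), on LN/PC (0.42) and in the interaction (-0.13), for G6PC3 (0.26) and KHK (0.092) on LN/PC, and for GOT1 on silk (0.020). SORD on LN/PC also turned under upper-quartile scaling (0.011) and against the mixtures (0.027 and 0.056), and ZBTB16 between co-cultures against the mixtures (0.36, and 0.89 at an adjusted p of 0.0460). None of these 10 values of members was called. G6PC3 between co-cultures gained a call under both scalings (-0.48 and -0.90) and in the fit of the compared libraries alone, and PC gained one under epithelium-restricted scaling (-0.93).

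With each library left out in turn, all called genes ran from 3415 to 4745 between co-cultures, 695 to 3208 between monocultures, 207 to 559 on silk, 753 to 2007 on LN/PC and 465 to 1359 in the interaction. Members called ran from 1 to 2 between monocultures, 0 to 2 on LN/PC and 0 to 2 in the interaction. Values that changed sign ran from -0.64 to 0.13 for PCK2, -0.026 to 0.57 for KHK and -0.047 to 0.17 for SORD between monocultures, -0.27 to 0.078 for GOT1 on silk, -0.89 to 0.48 for KHK and -0.11 to 0.13 for SORD on LN/PC, and -0.25 to 0.14 for G6PC3 in the interaction. Of the named list genes, the calls of 6 of 21 between co-cultures, 9 of 14 between monocultures, 3 of 7 on silk and 4 of 13 on LN/PC were lost without some single library. Groups of 3 libraries and the few reads of KHK limit precision.

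The replicate number as a block left the counts of members called at 2, 1, 0, 2, 1 and 6, and 4811, 1317, 443, 1558, 942 and 8365 genes were called in the 6 comparisons. It ended the calls of GPT2, SGK1 and IRS2 between monocultures, of PSAT1 between co-cultures and monocultures on silk, and of PGAM1 between those on LN/PC. Deviations of same-numbered libraries had r between -0.23 and 0.18 over 18 pairs, 2 of them over 0.1, so the numbers were not taken to pair samples.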
